A study of Mus musculus with 2 samples.

Results

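The genes described here were 10 factors of heterochromatin and DNA methylation: Trim28, Setdb1, Cbx1, Cbx3, Cbx5, Dnmt1, Dnmt3a, Dnmt3b, Uhrf1 and Daxx. They are 10 of the 21951 protein-coding genes of the GENCODE vM21 annotation on the GRCm38 (mm10) mouse genome. The data were 2 lists of CUT&RUN peaks, regions where DNA cut out of permeabilised nuclei at an antibody-bound protein was enriched. A peak was assigned to a gene when its midpoint lay from 1000 bp before to 500 bp after any of the gene's transcription start sites (TSSs), in the gene body, or within 20 kb of the gene. By this rule 41 of 28718 peaks of the GFP list and 37 of 28167 peaks of the SRCAP list were assigned to the 10 genes.

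Both libraries came from SYAT cells, a CGR8 mouse embryonic stem cell line in which YPet and an auxin-inducible degron were fused to SRCAP on both alleles and the OsTir1 receptor was stably expressed. One library was made with an antibody against GFP, from which YPet derives, and the other with an antibody against SRCAP itself. The 2 antibodies thus address the same tagged protein, and the comparison asks how far they place it at the same sites. Cells were kept in serum and LIF for 3 days, and 100000 were fixed per library. The control condition for SYAT cultures was auxinole, an inhibitor of the auxin receptor, at 200 nM in the sample labels but 200 µM in the study's methods. The labels do not say whether either library received auxin, and the methods describe CUT&RUN with the SRCAP antibody only. A figure legend of the study names control SYAT cells for its CUT&RUN map of tagged SRCAP, without naming the antibody. With 1 library per antibody there was no replicate, so differences between the lists carry no test and the intervals given cover counting error only. The lists hold no read counts, so depth is unknown and an absent peak does not show that SRCAP was absent.

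SRCAP is the catalytic subunit of a remodelling complex that puts the variant H2A.Z in place of H2A in nucleosomes, mostly at gene starts and enhancers. The products of the 10 genes are known largely, though not only, for roles in silent chromatin. KRAB zinc finger proteins bring TRIM28 and the H3K9 methyltransferase SETDB1 to retroelements and imprinted regions, HP1 proteins read methylated H3K9, and the DNA methyltransferases with UHRF1 write and copy CpG methylation, while DAXX with ATRX places histone H3.3 in the same silent regions.

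At the gene starts, the 2 lists named partly different genes. In the GFP list 4 of the 10 genes had a promoter peak (40%, 95% Wilson interval 16.8 to 68.7%), namely Cbx5, Dnmt3b, Uhrf1 and Daxx, beside 35.0% of all protein-coding genes. In the SRCAP list 6 did (60%, 31.3 to 83.2%), namely Trim28, Cbx3, Cbx5, Dnmt1, Uhrf1 and Daxx, beside 35.6% of all. Cbx5, Uhrf1 and Daxx had one in both lists, 3 of 10 beside 27.0% of all genes. Setdb1, Cbx1 and Dnmt3a had none in either, 3 of 10 beside 56.4%. With windows of 2500 bp either side, Cbx1 and Dnmt3a had promoter peaks in both lists, which made 5 genes in both. At Dnmt3a the GFP and SRCAP peaks so counted did not overlap. Coding genes with a promoter peak then went from 7683 to 9137 (GFP) and from 7825 to 9200 (SRCAP) of 21951. Their number in both lists was not counted at this width. With scores at or above the list's median the GFP count was 2, Cbx5 and Uhrf1, beside 4865 of the 21951 coding genes. The SRCAP count was then 4, without Dnmt1 and Daxx, beside 5159 coding genes. Cbx5 and Uhrf1 were the 2 left in both lists, for which no background was counted at this setting. The main backgrounds lay within the wide intervals of the 4 main counts. A peak anywhere in the gene or within 20 kb was found for 9 genes in the GFP list, all but Cbx3, beside 69.7% of coding genes, and for all 10 in the SRCAP list, beside 70.4%.

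**Figure D1:**
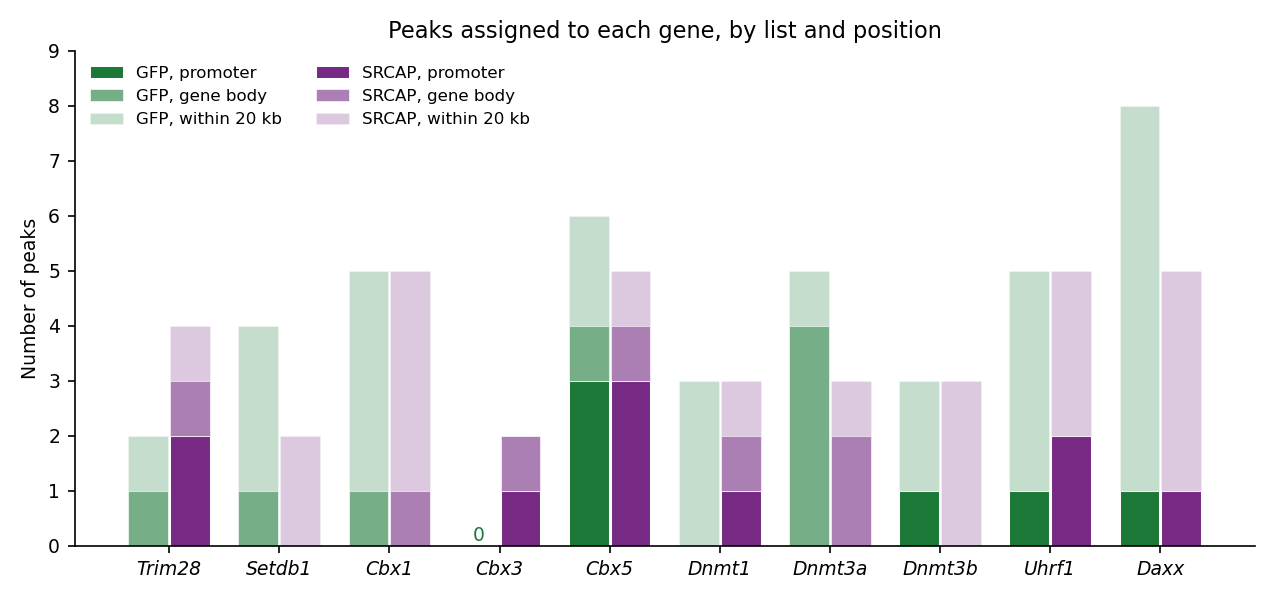
Number of peaks assigned to each of the 10 genes (vertical axis) in the GFP list (green) and the SRCAP list (purple), stacked by position from promoter (dark) through gene body to within 20 kb (pale). Cbx5 had 3 promoter peaks in each list, Daxx had the most peaks in the GFP list (8), and Cbx3 had none in that list.

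Most assigned peaks lay outside the genes. Of the 41 GFP peaks, 6 were at promoters, 8 in gene bodies and 27 in the flanks, and of those 27 a promoter window of another gene held 12. Of the 37 SRCAP peaks, 10 were at promoters, 7 in gene bodies and 20 in the flanks, with 9 of the 20 at another gene's promoter. The windows of the 10 genes held 53.1 GFP and 47.9 SRCAP peaks per Mb, beside 20.7 and 19.9 per Mb in the same windows around all coding genes. The starts of a median of 2 other coding genes lay in a member's window (range 0 to 5), and of 1 in that of any coding gene. Median peak scores at the members were close to those of the lists, at 46 (GFP, range 24 to 218) and 50 (SRCAP, 19 to 157) against 47 in each whole list. In the SRCAP list 24 of the 37 (64.9%) scored at or above the median, against 51.9% of all its peaks. In the GFP list 20 of the 41 (48.8%) did, against 51.3%. These shares were not tested. The score is the fifth column of the peak files, and its scale is not given in the sources used here.

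**Figure D2:**
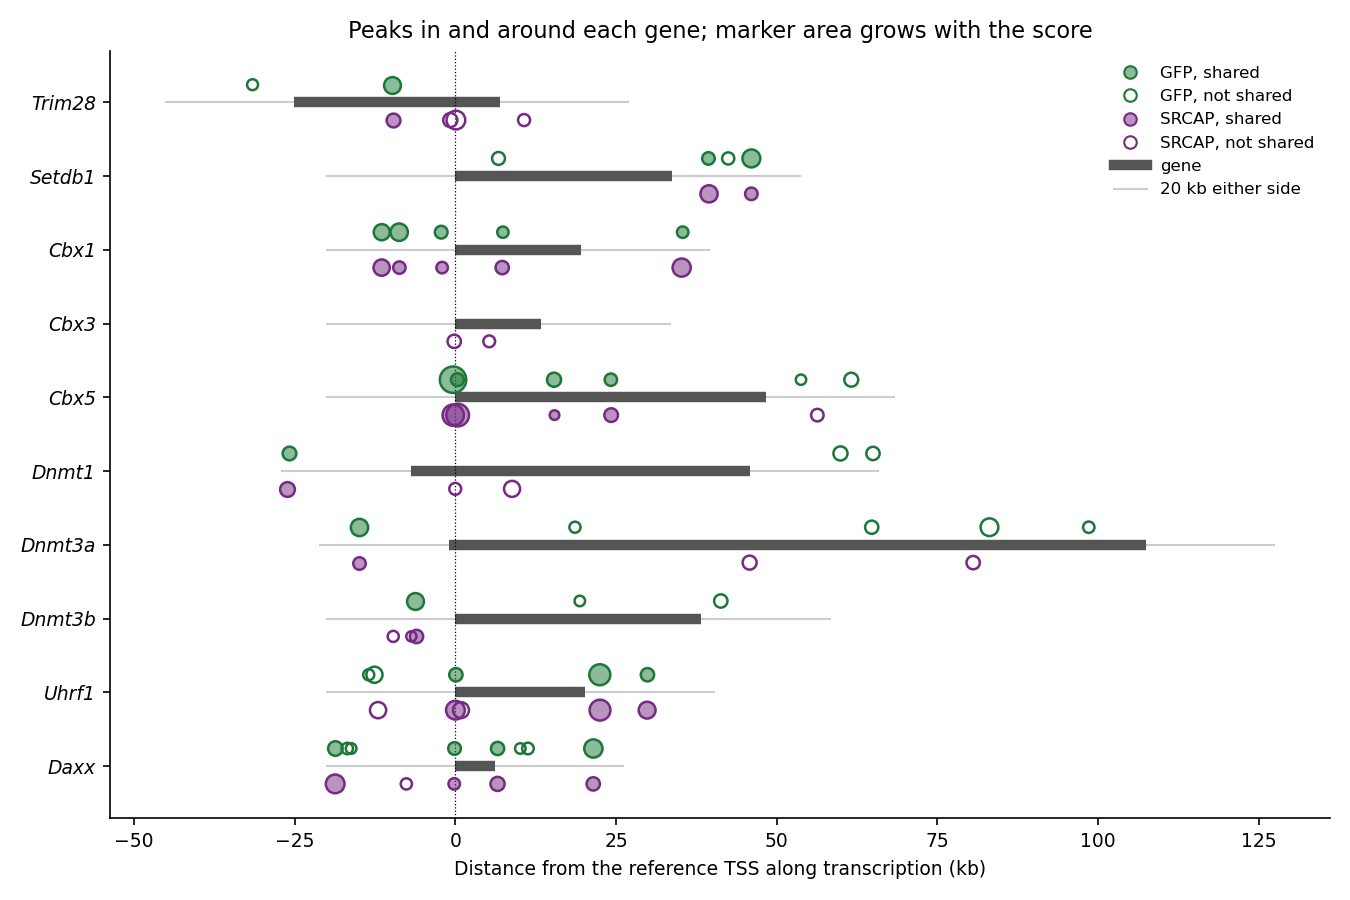
Peaks around each gene by distance in kb from its reference TSS along the direction of transcription (horizontal axis), with the gene as a thick bar, the 20 kb flanks as thin lines, GFP peaks above and SRCAP peaks below. Filled markers overlap a peak of the other list and marker area grows with the score. At Cbx1 all 5 peaks of each list were filled, and at Cbx3, where the GFP list had none, both SRCAP peaks were open.

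Trim28, the corepressor that binds KRAB zinc finger proteins, had its promoter peaks in the SRCAP list alone. They lay at -781 bp (score 54) and +88 bp (score 104) of the only coding TSS, and the nearest GFP peak was 8559 and 9421 bp away from them. The second of the 2 scored above 87.1% of the SRCAP list. Both lists shared a peak farther upstream, at -9855 bp in the GFP list (score 82) and -9714 bp in the SRCAP list (score 51). In the annotation this site is an intron of Trim28, but only of non-coding transcripts that begin upstream of the coding TSS. A SRCAP peak of score 36, 3811 bp past the end of the gene, lay at the promoter of Chmp2a, an ESCRT-III subunit, and a GFP peak of score 28 lay 6511 bp before its annotated start, in an intron of Slc27a5.

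The upstream SRCAP-only peak at Trim28 is shown whole because it carries 3 different promoter words. Capitals mark the SP/KLF word GGGCGG, the NFY word ATTGG, which reads CCAAT on the other strand, and the E-box CACGTG.
Trim28, chr7:13023222-13023519 (+), SRCAP list only: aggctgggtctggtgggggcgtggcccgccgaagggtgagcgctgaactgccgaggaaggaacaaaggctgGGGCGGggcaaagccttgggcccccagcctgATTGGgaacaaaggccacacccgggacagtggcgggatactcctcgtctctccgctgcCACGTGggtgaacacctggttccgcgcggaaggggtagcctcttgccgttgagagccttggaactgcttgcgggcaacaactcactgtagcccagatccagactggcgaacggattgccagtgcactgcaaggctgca
Its GC content was 64.1% and its CpG observed to expected ratio 0.597 over 18 CpGs.

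Setdb1, the H3K9 methyltransferase brought in by TRIM28, had no promoter peak. Its only peak inside the gene was a GFP peak of score 43, 6719 bp downstream of its reference TSS, and 69.9% of that peak was repeat-masked sequence. Its remaining peaks clustered past the 3' end, toward Cers2, a ceramide synthase gene. The lists shared a peak in a Cers2 promoter window (score 40 in GFP, 86 in SRCAP) and one in an intron of 6330562C20Rik (94 in GFP, 40 in SRCAP). A GFP peak of score 37 in the promoter windows of 6330562C20Rik and Cers2 had no SRCAP counterpart. The SRCAP list had no peak in Setdb1 itself, and its nearest one to the intronic GFP peak was 32427 bp away.

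The 3 HP1 genes each had a different pattern. Cbx1 (HP1β) had no promoter peak, yet all 5 of its peaks in each list overlapped. The nearest to the start lay 2163 bp upstream of the gene in the GFP list (score 42) and 2020 bp upstream in the SRCAP list (score 32). One pair lay in a Cbx1 intron at the start of the pseudogene Gm11517 (31 in GFP, 47 in SRCAP). The others were at the promoter of Snx11, a sorting nexin (74 and 76), in the intergenic stretch between Snx11 and Cbx1 (88 and 39), and at a promoter of Nfe2l1, a transcription factor of proteasome genes (32 and 97).

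Cbx3 (HP1γ) was the reverse case, with no GFP peak in the gene or within 20 kb. Its SRCAP promoter peak (score 47) was centred 172 bp upstream of the first TSS, between Cbx3 and the divergent gene Hnrnpa2b1, which encodes an RNA-binding protein, and counted for both. A second SRCAP peak of score 34 lay in an intron, and 46.3% of it was repeat-masked. The same GFP peak was the nearest to both, 27296 and 32712 bp away.

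Cbx5 (HP1α) had the strongest promoter signal of the 10 genes, in both lists. Its first exon faces Hnrnpa1, a gene for another RNA-binding protein, and 2 shared peaks lay around this pair of starts. The upstream one had a score of 218 in the GFP list, above 98.1% of that list, and 138 in the SRCAP list, above 93.3%. The one just inside Cbx5, at +327 bp in GFP and +364 bp in SRCAP, had the opposite order, with a score of 43 in GFP and 157 in SRCAP, above 95.3% of its list. The remaining shared promoter peak lay about an internal coding TSS, at -250 bp (score 39) and -206 bp (score 50). An intronic pair had scores of 54 in GFP and 19 in SRCAP. Past the 3' end the lists parted, with GFP peaks of 52 and 24 and a SRCAP peak of 40 that did not overlap them.

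The 2 stretches that both lists share around the Cbx5 start are shown on the Cbx5 strand, since they held the highest member score of each list. The upstream one is cut to the central 300 of its 424 bp. Capitals mark GGGCGG or its reverse CCGCCC, and CCAAT or its reverse ATTGG.
Cbx5 upstream, chr15:103240015-103240314 (-): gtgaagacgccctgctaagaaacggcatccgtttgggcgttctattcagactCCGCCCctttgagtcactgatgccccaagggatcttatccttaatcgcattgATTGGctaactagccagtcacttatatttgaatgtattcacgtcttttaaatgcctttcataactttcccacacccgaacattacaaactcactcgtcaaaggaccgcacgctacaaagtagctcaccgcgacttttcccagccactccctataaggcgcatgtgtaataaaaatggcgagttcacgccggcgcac
Cbx5 inside, chr15:103239394-103239583 (-): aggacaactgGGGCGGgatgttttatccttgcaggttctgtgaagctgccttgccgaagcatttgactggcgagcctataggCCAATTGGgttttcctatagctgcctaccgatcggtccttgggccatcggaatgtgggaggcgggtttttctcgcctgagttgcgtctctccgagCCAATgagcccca
The upstream stretch as printed had 48% GC but a CpG ratio of 1.10, with 18 CpGs in 300 bp. Counted on both strands, the whole upstream peak of each list held 3 GGGCGG words, 3 CCAAT words and 1 E-box CACGTG. The inner stretch had 55.8% GC, a CpG ratio of 0.682 and an overlapping pair of CCAAT words on opposite strands.

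**Figure D3:**
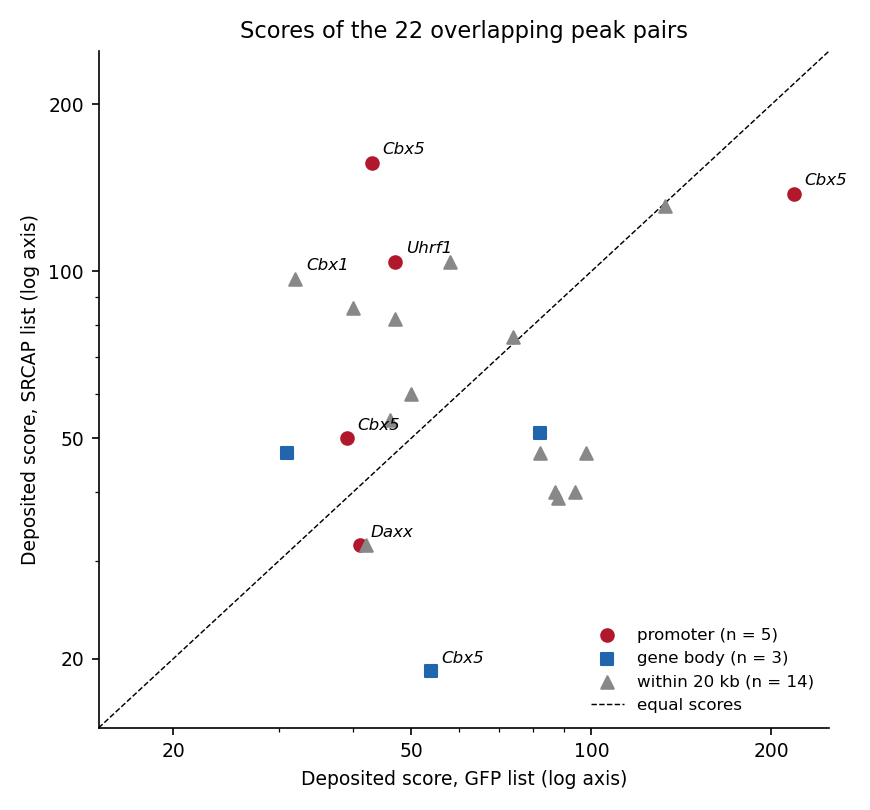
Deposited scores of the 22 peak pairs at the 10 genes that overlap 1 to 1, GFP list on the horizontal and SRCAP list on the vertical axis (both log), with the dashed line at equal scores. Red circles are promoter pairs, blue squares gene body pairs and grey triangles pairs within 20 kb. The pairs split 11 above and 11 below the line, from Cbx5 at 43 and 157 to Cbx5 at 54 and 19.

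Dnmt1, the maintenance methyltransferase, had a promoter peak in the SRCAP list alone. It was centred at -14 bp of the TSS of the longest coding transcript (score 35) and covered all 300 bp of the RefSeq promoter there together with 215 of 300 bp of the next RefSeq promoter downstream. A second SRCAP peak, of score 73, lay in an intron at 8829 bp. The same GFP peak, upstream of the gene, was the nearest to both, 24978 and 33947 bp away. Inside Dnmt1 the GFP list had none. The farthest upstream TSS, that of transcript Dnmt1-202, had no promoter peak in either list. Both lists shared a peak 18953 bp (GFP, score 50) or 19214 bp (SRCAP, score 60) before the gene. The other GFP peaks lay past its 3' end, at the promoter of Ppan, a ribosome biogenesis gene (score 47), and in intergenic sequence (score 54).

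Uhrf1, which brings DNMT1 to newly copied DNA, had promoter peaks in both lists. The shared one lay over the first TSS, at +87 bp in GFP (score 47) and +15 bp in SRCAP (score 104). The SRCAP list had a second one over a later coding TSS, at -112 bp of it (score 72), 527 bp from the GFP peak and not overlapping it. Downstream, the lists shared peaks at the promoter of Kdm4b, an H3K9 demethylase gene, with nearly equal scores (133 and 131), and in a Kdm4b intron (47 and 82). Upstream, at Plin3, a lipid droplet gene, a GFP peak of 74 and a SRCAP peak of 75 lay in its promoter windows, 312 bp apart and not overlapping. A further GFP peak of 29 lay in a Plin3 intron.

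The second Uhrf1 promoter stretch is shown because the lists differed there, beside the part of the shared one that lies before the first TSS. Capitals mark CCAAT and GGGCGG.
Uhrf1 first start, chr17:56303258-56303320 (+), both lists: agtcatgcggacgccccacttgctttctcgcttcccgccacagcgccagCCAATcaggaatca
Uhrf1 second start, chr17:56304084-56304312 (+), SRCAP list only: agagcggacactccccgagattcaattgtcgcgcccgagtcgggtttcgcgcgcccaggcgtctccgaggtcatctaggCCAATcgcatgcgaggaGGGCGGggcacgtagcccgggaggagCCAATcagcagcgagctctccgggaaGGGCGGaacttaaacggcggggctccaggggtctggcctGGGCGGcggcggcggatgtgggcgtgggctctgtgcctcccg
The second stretch held 27 CpGs at a ratio of 0.999, with 2 CCAAT and 3 GGGCGG words. The first, 63 bp long, held 5 CpGs at a ratio of 0.969 and a single CCAAT. The whole shared peak, of which this is a part, held 3 CCAAT words in each list, counted on both strands. In 500 bp about its midpoints the CpG ratio was lower, at 0.645 (GFP) and 0.596 (SRCAP), against 0.910 about the second peak. The 300 bp RefSeq promoter at the first start had a ratio of 0.472.

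The genes of the de novo methyltransferases had no peak at their main starts. Dnmt3a, whose 18 annotated TSSs gave it the most promoter windows of the 10 genes, had no promoter peak in either list. All 6 of its intragenic peaks were intronic and belonged to 1 list each. In the GFP list their scores were 29, 46, 92 and 31, and in the SRCAP list 53 and 47. The GFP peak of 92 lay at -1598 bp of the nearest TSS (transcript Dnmt3a-205), near the internal promoter of the short isoform DNMT3A2, and the nearest SRCAP peak was 2069 bp from it. The lists shared a single Dnmt3a peak, 13942 bp (GFP, score 87) or 13977 bp (SRCAP, score 40) before the gene.

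Dnmt3b had no peak at its coding promoters. Its promoter count in the GFP list came from a peak of score 25, above 11.1% of the list, at -552 bp of the TSS of a retained-intron transcript (Dnmt3b-212) deep in the gene. With TSSs of coding transcripts only it was not counted, leaving 3 genes in the GFP list. The lists shared a peak 6207 bp (GFP, score 82) or 6166 bp (SRCAP, score 47) before the gene, and the SRCAP list had 2 more there, of 29 and 23. A GFP peak of score 47 lay 3027 bp past the 3' end. As at Dnmt1 and Dnmt3a, its only shared peak thus lay upstream of the gene.

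Daxx, the H3.3 chaperone, had a weak promoter peak in both lists, of score 41 in GFP and 32 in SRCAP. It lay at -121 and -170 bp of the reference TSS, in the shared start region of Daxx and the divergent non-coding gene BC051226, and covered all 300 bp of the RefSeq promoter in GFP and 216 bp in SRCAP. No peak lay inside the gene, which is 6177 bp long. The neighbours carried the higher scores, at the promoters of Kifc1, a kinesin gene (58 in GFP, 104 in SRCAP), and Rgl2, a Ral exchange factor gene (98 and 47), with another shared peak at those of Tapbp and Zbtb22 (46 and 54). The GFP list alone had peaks in further Tapbp promoter windows (25, and 33 where Gm19412 also starts), and upstream at 32 and 26, the last being 81.5% repeat-masked. The SRCAP list alone had one of score 30 at -7622 bp.

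The shared Daxx promoter stretch is shown as the one that serves a divergent pair of starts with low scores in both lists. Capitals mark ATTGG and CCGCCC, whose 2 copies overlap.
Daxx, chr17:33909151-33909410 (+): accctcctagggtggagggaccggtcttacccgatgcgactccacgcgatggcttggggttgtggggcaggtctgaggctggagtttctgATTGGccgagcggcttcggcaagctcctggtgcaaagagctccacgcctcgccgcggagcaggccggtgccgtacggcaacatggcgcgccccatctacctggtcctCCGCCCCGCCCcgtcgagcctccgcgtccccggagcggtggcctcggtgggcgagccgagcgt
It held 29 CpGs at a ratio of 0.911 and 70% GC, more CpGs for its length than either Cbx5 stretch as printed, while its scores were lower.

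Overlap between the lists at these genes was like that of the lists as a whole. Of the GFP peaks at the members 22 of 41 overlapped a SRCAP peak (53.7%, 38.7 to 67.9%), against 56.2% of the whole GFP list. Of the SRCAP peaks 22 of 37 overlapped a GFP peak (59.5%, 43.5 to 73.7%), against 57.7%. By position, 5 promoter pairs, 3 gene body pairs and 14 flank pairs made up the 22, so 5 of 6 GFP promoter peaks (43.6 to 97.0%) and 5 of 10 SRCAP promoter peaks (23.7 to 76.3%) were shared. Over all coding genes 68.8% of GFP and 68.5% of SRCAP promoter peaks were shared, values within both intervals. The SRCAP score was the higher in 11 pairs and the GFP score in 11, with a median ratio of 1.01, beside a SRCAP score that was higher in 47.3% of 15843 pairs genome-wide. Of the 13 member pairs in a promoter window of any gene, the SRCAP score was higher in 9, against 48.9% of such pairs genome-wide. Of the 9 pairs outside all promoter windows it was higher in 2, against 46.4%. This split of the pairs was chosen after their scores were seen and was not tested.

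The CpG content of the peaks at the 10 genes differed with position in its medians, with overlapping ranges. In 500 bp about each midpoint, the median CpG ratio was 0.675 (GFP, n = 6) and 0.719 (SRCAP, n = 10) at member promoters. In member gene bodies it was 0.208 in both lists (n = 8 and n = 7). Flank peaks at another gene's promoter had medians of 0.550 (GFP, n = 12) and 0.674 (SRCAP, n = 9), and the other flank peaks 0.252 (n = 15) and 0.217 (n = 11). The former ranged from 0.214 to 0.946 in GFP and from 0.224 to 0.913 in SRCAP, and the latter reached 0.683 and 0.698. All peaks of the lists had medians of 0.303 and 0.310. Among the promoter peaks the internal Cbx5 peak (0.317 in GFP, 0.328 in SRCAP) and the Dnmt3b peak (0.286) were as CpG-poor as peaks outside promoters.

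**Figure D4:**
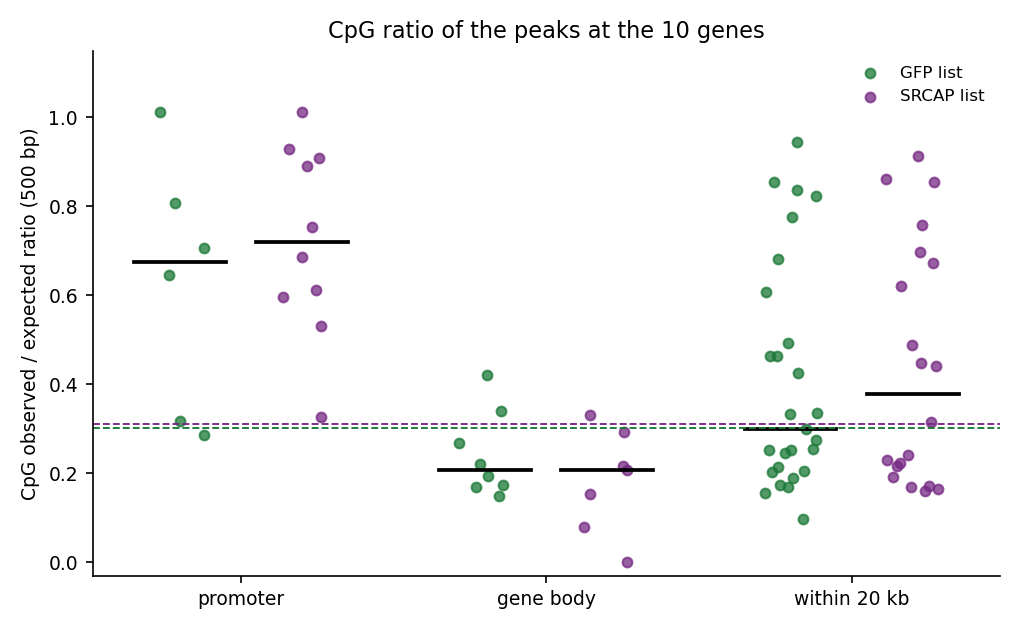
CpG observed to expected ratio in 500 bp about the midpoint of each peak at the 10 genes (vertical axis), by position and list (GFP green, SRCAP purple). Black bars are medians and dashed lines the medians of all peaks of each list (0.303 and 0.310). Gene body peaks lay between 0 and 0.422, while promoter peaks reached 1.01.

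All 10 genes had at least 1 RefSeq promoter (250 bp before to 50 bp after the start, GRCm38) with a CpG ratio of 0.6 or more. Among the 8644 coding genes of that kind, 53.6% had a GFP promoter peak, 54.7% a SRCAP promoter peak and 42.7% both, against 18.4%, 18.4% and 13.4% of the 7773 with a lower ratio. The members' 4, 6 and 3 of 10 thus stood beside backgrounds of 53.6%, 54.7% and 42.7% when CpG content was taken into account. A high ratio was also found where no peak was listed. The RefSeq promoter of Cbx1, with a ratio of 1.06, and one of Dnmt3a, with 1.06, exceeded 95.5% and 95.7% of the 21263 coding promoters and had no peak. The upstream promoter of Cbx5, at 1.09, had 150 and 197 of its 300 bp in GFP and SRCAP peaks.

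Short promoter words were searched on both strands of the 19 RefSeq promoters of the members. GGGCGG, the SP/KLF word, was in 16 of them and in at least 1 promoter of all 10 genes, against 46.2% of all coding promoters. That background was not matched for CpG content. All 10 genes had a CpG-rich promoter, whereas the median CpG ratio of all coding promoters was 0.567. CCAAT, the NFY word, was in 7, of Setdb1, Cbx5, Dnmt1, Uhrf1 and Daxx, against 38.2% of all. The NRF1 word GCGCATGCG was in 2 promoters, both of Dnmt1, against 2.35% of all, and each was read on both strands of 1 palindrome. The ETS word CCGGAAGT was found in Daxx alone (5.15% of all), in 3 overlapping promoters, and the E-box CACGTG in Cbx5 and Dnmt3a (7.84% of all). AAGATGGC (YY1, 3.05%), ATTTGCAT (octamer, 1.66%) and TGACGTCA (CRE, 2.23%) had no match in these windows. Words differ in length and may overlap each other, several promoters of a gene share sequence, and a match describes letters and not a bound site. Every member with CCAAT in a RefSeq promoter except Setdb1 had a SRCAP promoter peak. Trim28 and Cbx3 had one too, without CCAAT in their RefSeq promoters. In the GFP list Cbx5, Uhrf1 and Daxx had one, and Setdb1 and Dnmt1 did not. Dnmt3b had one without CCAAT in its RefSeq promoter. The upstream Trim28 SRCAP peak and the Dnmt3b GFP peak did hold the word, outside those RefSeq promoters. How often coding genes with CCAAT have a promoter peak was not counted, and no link was tested.

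Promoter peaks were also counted for the other genes of these pathways. Of 42 such genes, 29 had one in the GFP list (69.0%, 54.0 to 80.9%), 27 in the SRCAP list (64.3%, 49.2 to 77.0%) and 23 in both (54.8%, 39.9 to 68.8%), beside the 35.0%, 35.6% and 27.0% of all coding genes. A RefSeq promoter could be matched for 36 of them, and in 30 its CpG ratio was 0.6 or more. Of these 30, 22 (73.3%) had a GFP and 19 (63.3%) a SRCAP promoter peak, beside 53.6% and 54.7% of CpG-rich genes. By class, KRAB zinc finger and TRIM28 partner genes had 8 of 9 in GFP and 6 of 9 in SRCAP. Genes of H3K9 methylation and the HUSH complex had 7 and 9 of 12, H3.3 and histone chaperone genes 5 and 3 of 7, and genes that write, read or remove DNA methylation 9 and 9 of 14.

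Ranked by the larger of their scores in the 2 lists, the 3 highest of the 42 were Mbd4, a glycosylase that binds methylated CpGs (202 in GFP, 279 in SRCAP), Atf7ip, a partner of SETDB1 (189 and 96), and Mbd3, a NuRD subunit (136 and 173). Mbd4 thus exceeded the SRCAP score of every member and Cbx5 the GFP scores of all 42. No promoter peak was listed in either list for 9 of the 42 (21.4%), beside 56.4% of all coding genes. They were Zfp57, which protects imprints, Ehmt2 (G9a), the HUSH subunit gene Fam208a, the histone chaperone class genes Atrx and Asf1a, and Hells, Zbtb33, Tet3 and Uhrf2 of the DNA methylation class. Daxx thus had a promoter peak in both lists and its partner Atrx in neither, and the same held for Uhrf1 and its paralogue Uhrf2. The Daxx scores, 41 in GFP and 32 in SRCAP, lay below the median of 47 in each list. Such single pairs of genes were not tested.

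**Figure D5:**
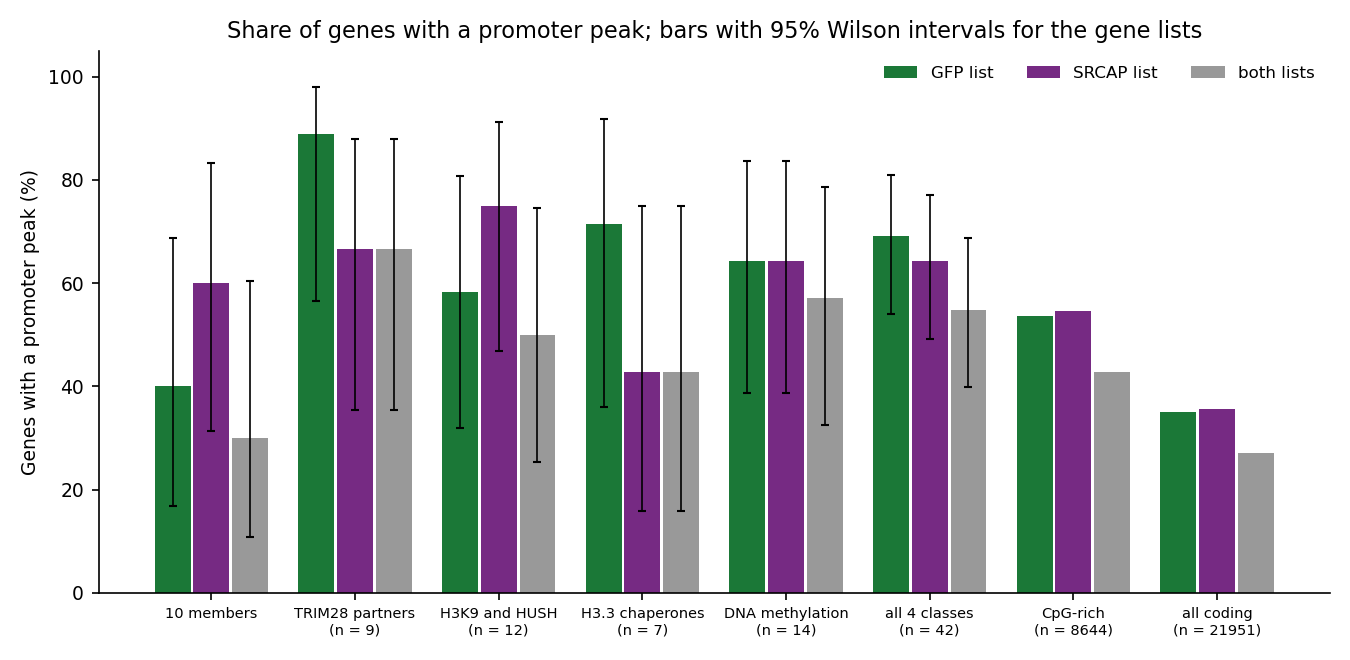
Percentage of genes with a promoter peak (vertical axis) in the GFP list (green), the SRCAP list (purple) and both (grey), for the 10 members, the 4 classes of other pathway genes, all 42 of these, CpG-rich coding genes and all coding genes, with 95% Wilson intervals for the gene lists. The members stood at 40, 60 and 30%, the 42 pathway genes at 69.0, 64.3 and 54.8%, and all coding genes at 35.0, 35.6 and 27.0%.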

How the data were processed

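The authors mapped the libraries and called peaks per library. The submitters' processing notes list STAR, Picard and MACS2 with the builds mm10 and dm6. The peak caller's control, threshold and blacklist for CUT&RUN were not given in the sources used here. The deposited files give each peak's position and a score, a whole number with a minimum of 13 in both lists. Because counts of reads were not used here, depth is unknown. Peak ends lay within the chromosomes of GRCm38, and all 22 chromosome names matched.

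Peaks were placed by midpoint against GENCODE vM21, with promoter windows from 1000 bp upstream to 500 bp downstream of any TSS, and peaks were shared at an overlap of at least 1 bp. The reference TSS was that of the coding transcript with the longest coding sequence, the most upstream one in ties. Repeat-masked bases were the lower-case bases of the genome file. Intervals are 95% Wilson intervals. Promoter sequences were RefSeq's (GRCm38), 21263 for coding genes and 19 for the 10 members, and all equalled the genome. Printed stretches leave out UTRs annotated in GENCODE vM21 and were cut to the central 300 bp where longer. Counting steps were tested on simulated data. Python 3.11.15, pandas 2.3.3, scipy 1.17.1, pysam 0.24.0, samtools 1.23.1 and matplotlib 3.10.9 were used.

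All 10 members were described with every peak. Genes that are no member were named where a member's peak lay in their promoter window, or, of 42 other pathway genes, for the 3 highest promoter scores or for no promoter peak; Slc27a5 was named for position only. The members, the pathway list and the rules were chosen with earlier results of these data known. Alternatives were a score at or above the list's median, promoter windows of 2500 bp either side, coding TSSs only, any overlap with the window, 5 and 50 kb flanks, and stricter sharing.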

Additional observations from a re-analysis of the deposited data

How the results depend on the processing

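No paired analysis was possible because there was 1 library with each antibody. Of the 40 alternative values of the main counts, 27 were within 1.5 times the main value and 13 were not. With scores at or above the list's median, members with a GFP promoter peak went from 4 to 2 (Cbx5 and Uhrf1), other pathway genes in the GFP list from 29 to 14, and coding genes from 7683 to 4865 (GFP) and from 7825 to 5159 (SRCAP). Members with a SRCAP promoter peak went from 6 to 4 and those in both lists from 3 to 2, which is within 1.5 times. Peaks at the members then went from 41 to 20 (GFP) and from 37 to 24 (SRCAP), and shared peaks from 22 to 10 in each list. With promoter windows of 2500 bp either side, members with a promoter peak in both lists went from 3 to 5, with Cbx1 and Dnmt3a added. The Dnmt3a peaks of the 2 lists did not overlap and lay nearest to different TSSs. Coding genes then went to 9137 (GFP) and 9200 (SRCAP). Peaks at the members were 19 (GFP) and 21 (SRCAP) with 5 kb flanks, and 80 and 71 with 50 kb flanks. These shifts follow from fewer peaks or wider windows. Of 60 counts per gene and list, 37 moved by more than 1.5 times, and Cbx3 had no GFP peak until the flank was 50 kb (3 peaks). Depth could not be taken into account.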
